A study of Mus musculus with 12 samples.

Results

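The 10 Krüppel-like factor genes Klf2, Klf4, Klf5, Klf6, Klf7, Klf9, Klf10, Klf13, Klf15 and Klf16 were followed in mouse hippocampus after injection of pilocarpine. A probe set, the group of probes that reads 1 transcript on the array, was taken for a gene where the platform annotation gave it that symbol alone. Each of the 10 genes had 1 such probe set. They make up 10 of the 17 Klf genes measured, and of 19938 genes measured in all. Klf10 was chosen by its measured values on these arrays, a rise in Srf mutants given pilocarpine only, and the other genes as members of its family with earlier results of these data known. The values of Klf10 in every comparison are therefore a description with no test. The other 9 genes were tested.

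Whole hippocampal RNA of 12 mice was hybridised to 1 Affymetrix Mouse Gene 1.0 ST array each, with 3 mice in each of 4 groups. The first group held Srf mutants (Srf loxp/loxp; CaMKCreERT2) that received pilocarpine, a muscarinic agonist that evokes seizures, and that had seizures without reaching status epilepticus (SE, lasting seizure activity). The second group held mutant controls that received Ringer solution. The remaining groups held heterozygous littermates (Srf loxp/+; CaMKCreERT2), given pilocarpine and taken 40 min into SE, or given Ringer solution as heterozygous controls. In the labels the heterozygous animals are named WT or Control, although they carry 1 floxed Srf allele, and the treatment of both pilocarpine groups reads "with seizure". All mice carried the Cre transgene, were treated with tamoxifen, were on a C57/Bl6 background and were of either sex. Their age is recorded as 7 to 10 weeks. By the study's methods tamoxifen was given from an age of at least 7 weeks and mice were analysed 2 weeks later, so 7 weeks is not the age at tissue collection. Pilocarpine was given at 335 or 350 mg/kg after methyl scopolamine. The protocol shared by all labels also names diazepam, 40 min after the onset of SE, while by the study's methods a mouse was either killed at that time or given diazepam, and no label says which mice received it. Cre is driven by the Camk2a promoter, so that Srf was deleted in forebrain glutamatergic neurons and kept by glia, vessels and interneurons. The pilocarpine groups differed in SE as well as in genotype, and the time between injection and tissue collection in the mutants without SE is not given in the sources used here. In a difference between the responses of the 2 genotypes, genotype and SE therefore cannot be told apart. Mutants that reached SE were not analysed here.

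Krüppel-like factors are transcription factors that bind GC-rich and CACCC sequences through zinc fingers near their carboxy terminus, and differ in the cofactors their amino-terminal parts recruit. Several are immediate early genes, transcribed within minutes of growth factor, hormone or synaptic signals without new protein synthesis. In rodent neurons, Klf4 and Klf9 hold back axon growth, whereas Klf6 and Klf7 favour it. Klf2 and Klf4 are also known from endothelial cells, where blood flow induces them through the kinase ERK5 and MEF2 factors. Klf9 and Klf15 respond to glucocorticoids, and Klf10 was first described as a gene induced early by transforming growth factor beta (TGF-β). SRF, the factor deleted here, binds the CArG box, a short AT-rich element found in the promoters of many immediate early genes.

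The promoters of the 4 members whose response differed between the genotypes, Klf2, Klf4, Klf6 and Klf7, are shown beside that of Srf, the deleted gene, which serves as an example of a promoter with CArG boxes. They are RefSeq sequences of the build GRCm38.p6, the 250 bases before the annotated start, written 5′ to 3′ on the strand of the gene. In the Klf promoters, capitals mark the GC box GGGCGG and the core TGACG of the cyclic AMP response element, on either strand. In the Srf promoter, capitals mark the CArG boxes alone.
Klf2, chr8:72318812-72319061, plus strand: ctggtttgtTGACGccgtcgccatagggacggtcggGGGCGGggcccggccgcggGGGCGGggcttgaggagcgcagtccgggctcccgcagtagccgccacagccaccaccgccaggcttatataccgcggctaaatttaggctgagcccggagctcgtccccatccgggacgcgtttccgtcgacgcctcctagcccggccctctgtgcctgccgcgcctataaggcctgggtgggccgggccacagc
Klf4, chr4:55532476-55532725, minus strand: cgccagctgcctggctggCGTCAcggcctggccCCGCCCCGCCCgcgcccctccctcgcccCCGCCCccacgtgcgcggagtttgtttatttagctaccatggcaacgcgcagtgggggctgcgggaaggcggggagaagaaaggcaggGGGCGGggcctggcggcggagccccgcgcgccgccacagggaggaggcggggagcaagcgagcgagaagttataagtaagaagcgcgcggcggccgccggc
Klf6, chr13:5861239-5861488, plus strand: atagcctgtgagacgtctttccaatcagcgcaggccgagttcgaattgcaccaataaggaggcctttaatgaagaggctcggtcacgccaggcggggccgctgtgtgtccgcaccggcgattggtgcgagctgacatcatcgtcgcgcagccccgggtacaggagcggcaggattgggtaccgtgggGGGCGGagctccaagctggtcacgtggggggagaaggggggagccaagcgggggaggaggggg
Klf7, chr1:64121390-64121639, minus strand: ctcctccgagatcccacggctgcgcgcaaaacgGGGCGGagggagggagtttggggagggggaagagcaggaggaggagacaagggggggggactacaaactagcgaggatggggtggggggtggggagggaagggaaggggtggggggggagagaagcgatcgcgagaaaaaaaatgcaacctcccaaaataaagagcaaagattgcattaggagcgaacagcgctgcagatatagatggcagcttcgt
Srf, chr17:46556163-46556412, minus strand: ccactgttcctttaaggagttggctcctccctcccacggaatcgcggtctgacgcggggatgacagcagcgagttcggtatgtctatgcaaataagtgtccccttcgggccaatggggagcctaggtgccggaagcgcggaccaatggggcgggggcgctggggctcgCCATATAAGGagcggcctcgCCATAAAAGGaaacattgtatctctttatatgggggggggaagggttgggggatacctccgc
The promoter table matched 7 of the 10 members, and Klf5, Klf10 and Klf16 were not matched. A CArG box, CC followed by 6 bases of A or T and then GG, was found in 0 of the 7 windows, against 1.47% of the 32851 mouse windows of the same length. Srf itself held 2, at 82 to 73 and at 62 to 53 bases before its start. The GC box, which Klf and SP factors can bind, was found in 6 of the 7, all but Klf9, against 32.7% of all windows. Klf4 held 4 of them, a pair of which share a base, while Klf6 and Klf7 held 1 each. The GC box is made of G and C alone, and the 7 windows were 59.2% to 74% G and C. Windows of like G and C content were not compared. The core TGACG was found in Klf2, Klf4, Klf9, Klf13 and Klf15, 5 of the 7, against 17.8% of all windows. The full cyclic AMP site TGACGTCA, which contains the core, and the AP-1 site TGACTCA were found in 0 of the 7, against 1.55% and 4.46% of all windows. The search covered both strands, and the absence of a match says only that these letters are not within this window.

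**Figure D1:**
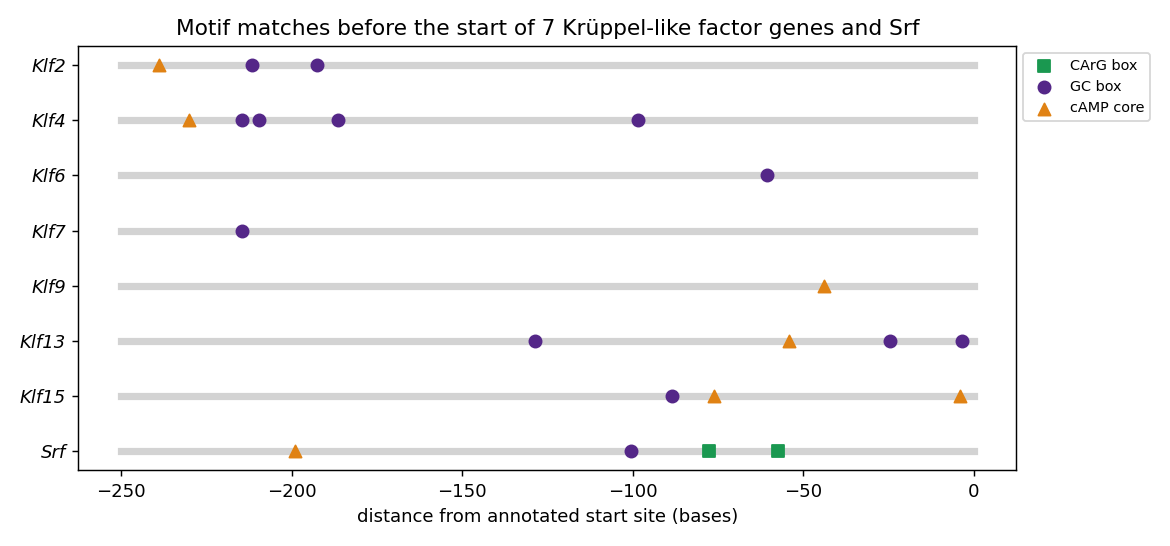
Matches to the searched motifs in the promoter windows of the 7 matched Klf members and of Srf, by distance in bases before the annotated start (x axis, 250 bases to the start). Srf alone carries CArG boxes, and GC boxes are found in 6 of the 7 Klf windows.

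Levels are log2 robust multiarray average values, on which a difference of 1 is a 2-fold change; the levels of different genes are not compared, since probes differ in brightness. Array medians lay between 6.78 and 6.86 and arrays of 1 group correlated at 0.996 to 0.998. Srf stood at 8.90, 8.90 and 8.83 in mutants given pilocarpine and 8.80, 8.94 and 8.96 in mutant controls, against 10.16, 10.20 and 10.27 in heterozygous mice with SE and 9.59, 9.53 and 9.60 in heterozygous controls. It was 0.67 lower in mutant than in heterozygous controls (standard error 0.052, limma, adjusted p = 0.000263). Camk2a and the other 4 excitatory neuron markers were measured at high levels in all groups, with a mean of 12.31 to 12.48 on every array. Since the hippocampus was taken whole, fewer cells of a type and less RNA per cell cannot be told apart. All p values below come from limma over 23410 probe sets with a gene, adjusted by the Benjamini-Hochberg method, and a gene is said to rise or fall where the adjusted p was under 0.05.

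In heterozygous mice with SE, 7 of the 9 tested Klf genes rose, 0 fell, and Klf13 and Klf15 did not pass the test; 5.08% of all probe sets rose in this comparison and 6.93% fell, 12% in all. The same 7 genes lay higher in every mouse with SE than in every heterozygous control, as did 10.6% of all probe sets. The members were chosen with earlier results of these data known, so these shares are given for scale and do not test the family. The 7 Klf genes measured outside the 10 members passed the test in 0 comparisons. In mutants given pilocarpine, 0 of the 9 passed the test in either direction, where 0.871% of all probe sets rose and 0.965% fell, 1.84% in all, and 2 of the 9, Klf4 and Klf9, had an unadjusted p under 0.05, as did 14.8% of all probe sets. Over the 9 genes the median change was 0.34 in heterozygous mice with SE, beside -0.03 over all probe sets, and 0.03 in mutants given pilocarpine, beside -0.00 over all. The response of Klf2, Klf4, Klf6 and Klf7 was smaller in the mutants than in the heterozygous mice, by the test of the difference itself.

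**Figure D2:**
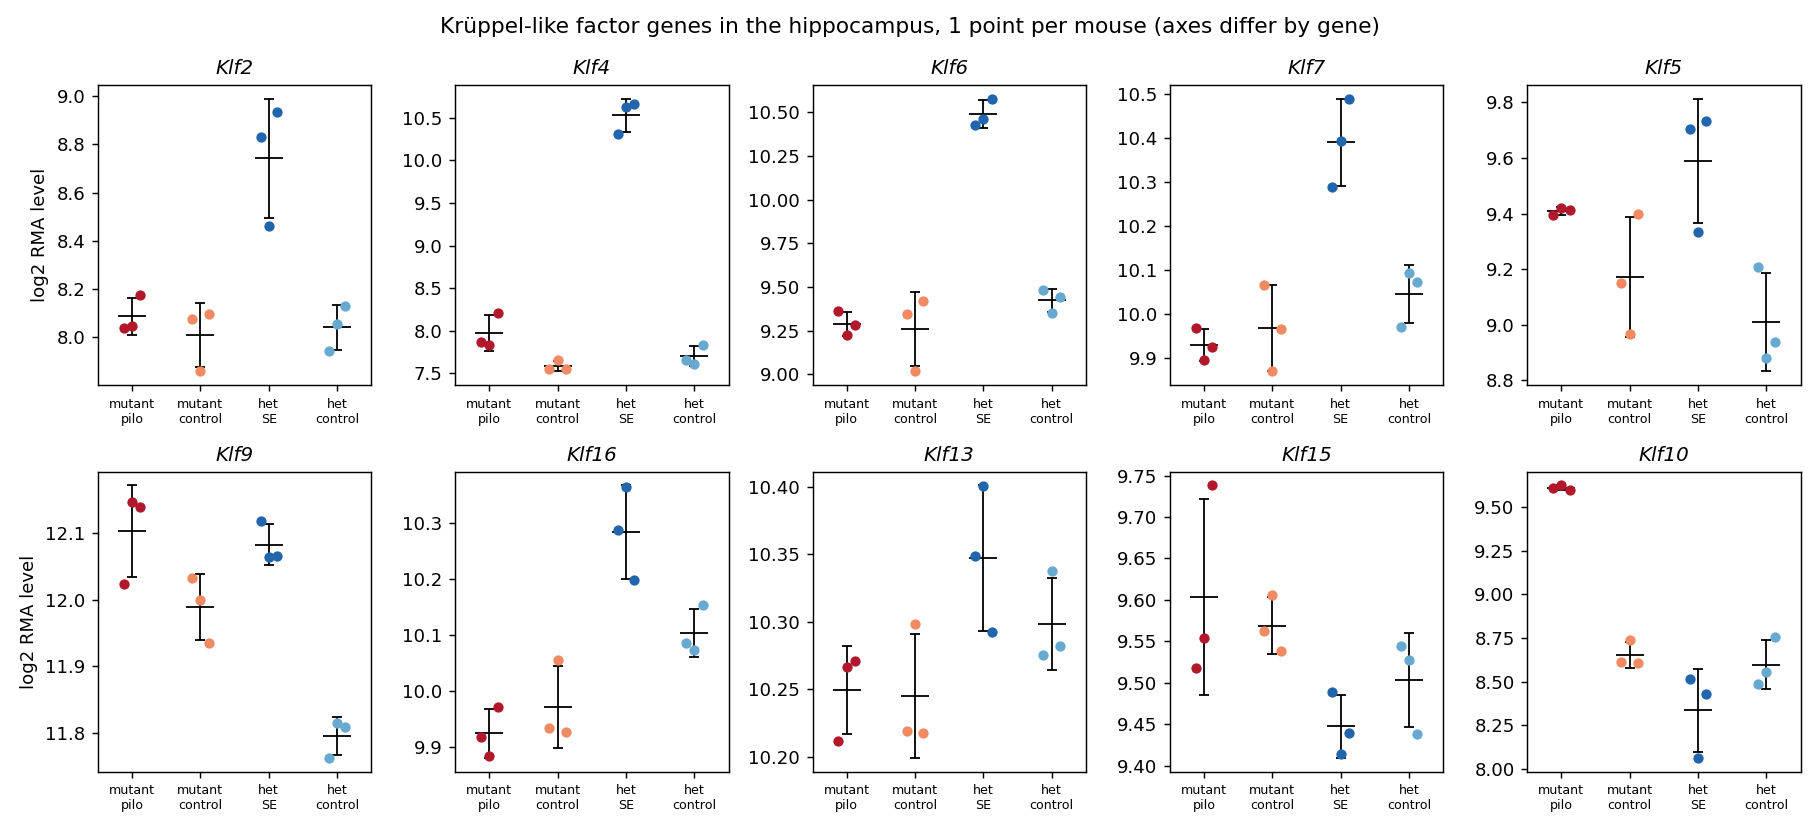
Level of each of the 10 Klf genes (log2, y axis, scale differing by gene) in the 4 groups of 3 mice; points are mice and bars are the mean and SD. Klf4 and Klf6 stand apart in heterozygous mice with SE, and Klf10 stands apart in mutants given pilocarpine.

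Klf4, a repressor of axon growth in neurons and a factor of endothelial and stem cells, had the largest response of the 10. It stood at 7.86, 7.83 and 8.21 in mutants given pilocarpine and at 7.54, 7.66 and 7.55 in mutant controls. In heterozygous mice it stood at 10.31, 10.62 and 10.66 with SE, against 7.66, 7.61 and 7.84 in controls. All 3 mutants given pilocarpine thus lay above all 3 mutant controls, as for 7.04% of all probe sets and for no other of the 9 genes, and the mice with SE lay more than 2 log2 units above every other mouse. Klf4 rose 7.11-fold in heterozygous mice with SE (log2 2.83, standard error 0.11, adjusted p = 4.1e-09). In the mutants the change was 1.30-fold (log2 0.38, standard error 0.11, 95% interval 0.14 to 0.62, adjusted p = 0.106). The mutant response was smaller than the heterozygous response (difference, mutant minus heterozygous, -2.45, 95% interval -2.79 to -2.11, adjusted p = 2.22e-06), and in log2 units it came to 13.5% of it.

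Klf2, the closest relative of Klf4 in the family, is a factor of quiescent endothelium and of T cells. It stood at 8.04, 8.05 and 8.18 in mutants given pilocarpine and 8.07, 7.86 and 8.10 in mutant controls, and the groups overlapped. In heterozygous mice it stood at 8.83, 8.46 and 8.93 with SE, against 7.94, 8.06 and 8.13 in controls, with no overlap. Klf2 rose 1.62-fold with SE (log2 0.70, standard error 0.11, adjusted p = 0.000818), and changed by 0.08 in the mutants (95% interval -0.15 to 0.31, adjusted p = 0.807). The 2 responses differed by -0.62 (95% interval -0.95 to -0.30, adjusted p = 0.0409). This last call is close to the threshold and was lost in 11 of 21 alternative settings, with differences of -0.76 to -0.53 and adjusted p values of 0.00238 to 0.108 over all 21. It was lost on leaving out mutant given pilocarpine 1 or 2, mutant control 1 or 3, heterozygous mouse with SE 1 or 3, or any of the heterozygous controls.

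Klf6, which favours axon growth in retinal neurons and is an early gene of injury and growth factor responses, rose 2.09-fold with SE (log2 1.06, standard error 0.089, adjusted p = 5.73e-06). It stood at 10.43, 10.46 and 10.58 in heterozygous mice with SE, against 9.48, 9.35 and 9.44 in heterozygous controls. In mutants given pilocarpine it stood at 9.36, 9.22 and 9.28, against 9.34, 9.02 and 9.42 in mutant controls. The 3 mice with SE thus lay about 1 log2 unit above the rest, while the mutant groups overlapped. The mutant change was 0.03 (95% interval -0.16 to 0.22, adjusted p = 0.930), and the difference between the responses was -1.04 (95% interval -1.31 to -0.76, adjusted p = 0.000467). Among the 10 genes, Klf4 and Klf6 alone reached a 2-fold rise in heterozygous mice with SE, and their calls there and in the difference between genotypes held in every alternative setting run.

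Klf7, the closest relative of Klf6, is a neuronal factor needed for axon outgrowth in the mouse. It stood at 9.97, 9.90 and 9.93 in mutants given pilocarpine and 10.07, 9.87 and 9.97 in mutant controls. In heterozygous mice it stood at 10.29, 10.39 and 10.49 with SE, against 9.97, 10.09 and 10.07 in controls. The mutant groups overlapped, and the SE group lay above all other mice. Klf7 rose 1.27-fold with SE (log2 0.34, standard error 0.063, adjusted p = 0.00278), changed by -0.04 in the mutants (95% interval -0.17 to 0.10, adjusted p = 0.847), and differed in response by -0.38 (95% interval -0.57 to -0.19, adjusted p = 0.0340). As for Klf2, this last call was lost in 11 of 21 alternative settings, with differences of -0.43 to -0.33 and adjusted p values of 0.0173 to 0.0848 over all 21. It was lost on leaving out any of the mutants given pilocarpine, mutant control 1 or 3, heterozygous mouse with SE 2 or 3, or heterozygous control 1 or 3.

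Klf5, an activator linked to cell proliferation and to remodelling of smooth muscle, rose with SE but varied widely between mice. It stood at 9.39, 9.42 and 9.41 in mutants given pilocarpine, against 9.15, 8.97 and 9.40 in mutant controls. With SE it stood at 9.71, 9.33 and 9.73, against 9.21, 8.88 and 8.94 in heterozygous controls. The third mutant control lay within the range of the mutants given pilocarpine, and the heterozygous groups did not overlap. Klf5 rose 1.5-fold with SE (log2 0.58, standard error 0.12, adjusted p = 0.00738). The mutant change was 0.24 (95% interval -0.03 to 0.50, adjusted p = 0.407). The difference between the responses was -0.35 (95% interval -0.72 to 0.03, adjusted p = 0.370), which holds both 0 and a difference as large as the whole heterozygous change.

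Klf9, Klf13 and Klf16, together with Klf10, belong to the branch of the family that recruits the corepressor SIN3A. Klf9, a gene induced by thyroid hormone and glucocorticoids in neurons, stood at 12.02, 12.15 and 12.14 in mutants given pilocarpine and 12.03, 11.999 and 11.93 in mutant controls. It stood at 12.12, 12.06 and 12.07 in heterozygous mice with SE, against 11.76, 11.81 and 11.81 in heterozygous controls. The 3 heterozygous controls were the lowest of all 12 mice, and the other groups lay close together. Klf9 rose 1.22-fold with SE (log2 0.29, standard error 0.046, adjusted p = 0.00127). Its change in the mutants was 0.11 (95% interval 0.01 to 0.21, adjusted p = 0.271), and the difference between the responses was -0.17 (95% interval -0.32 to -0.03, adjusted p = 0.202).

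Klf16, a repressor described at dopamine receptor genes, showed the smallest called rise. It stood at 9.92, 9.88 and 9.97 in mutants given pilocarpine and 9.93, 10.06 and 9.93 in mutant controls, against 10.29, 10.37 and 10.20 in heterozygous mice with SE and 10.09, 10.07 and 10.15 in heterozygous controls. All 3 mice with SE lay above the controls, yet the rise was 1.13-fold (log2 0.18, standard error 0.054, adjusted p = 0.0482) and the call was lost in 15 of 22 alternative settings, with changes of 0.14 to 0.22 and adjusted p values of 0.0283 to 0.164 over all 22. It was kept on leaving out mutant control 2 or heterozygous mouse with SE 3, and lost on leaving out any other mouse. The mutant change was -0.05 (95% interval -0.16 to 0.07, adjusted p = 0.755) and the difference between the responses -0.23 (95% interval -0.39 to -0.06, adjusted p = 0.143).

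Klf13, which acts in lymphocytes and heart development, and Klf15, a glucocorticoid-responsive regulator of amino acid and glucose metabolism, did not pass the test in any comparison. Klf13 ranged between 10.21 and 10.40 over all 12 mice, with changes of 0.00 (95% interval -0.09 to 0.10) in the mutants and 0.05 (95% interval -0.05 to 0.15) with SE. Klf15 ranged between 9.41 and 9.74, with changes of 0.03 (95% interval -0.09 to 0.16) in the mutants and -0.06 (95% interval -0.18 to 0.07) with SE. For both genes the intervals leave out changes as large as that of Klf7 with SE.

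**Figure D3:**
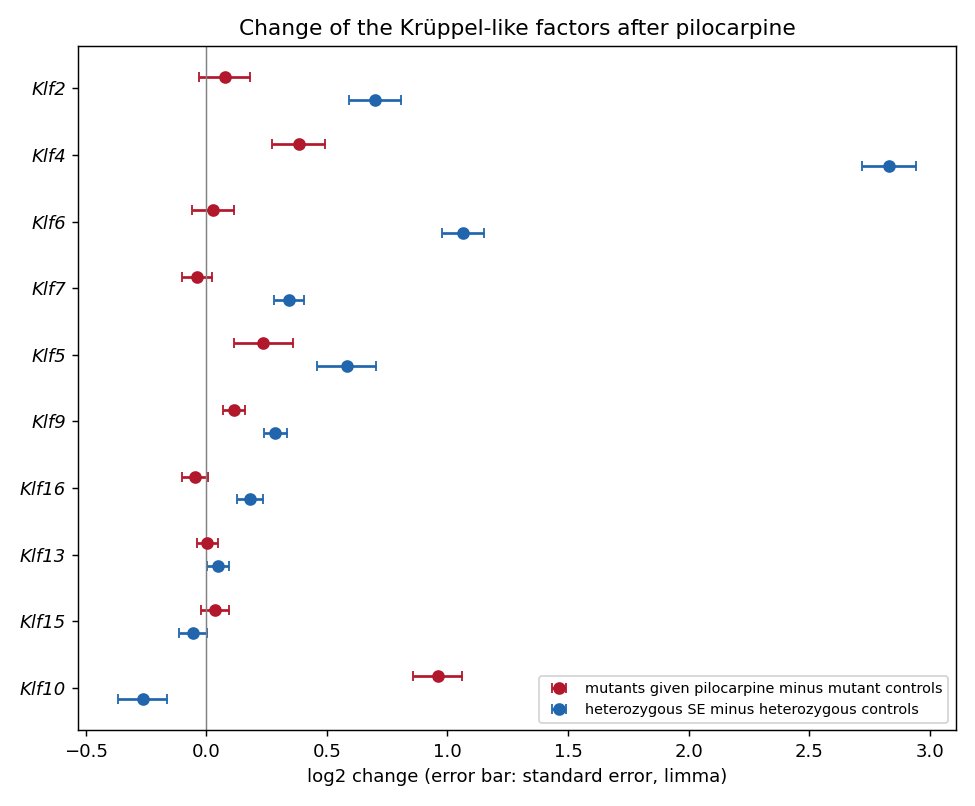
Change in log2 level of the 10 Klf genes with pilocarpine in mutants and in heterozygous mice with SE (x axis). Points are differences of group means, lines are 1 standard error from limma to each side, and the points of Klf10 are descriptions. Klf4 has the largest rise with SE, 2.83, and Klf10 the largest rise in mutants, 0.96.

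Klf10, a repressor that also belongs to the SIN3A-binding branch and takes part in TGF-β signalling through SMAD7, had another pattern, the one for which it was chosen. It stood at 9.61, 9.63 and 9.60 in mutants given pilocarpine, 9.61 ± 0.013 (mean and SD, n = 3), against 8.61, 8.74 and 8.61 in mutant controls, 8.65 ± 0.075. It stood at 8.51, 8.06 and 8.43 in heterozygous mice with SE, 8.33 ± 0.24, against 8.48, 8.55 and 8.75 in heterozygous controls, 8.60 ± 0.14. The 3 mutants given pilocarpine lay within 0.025 of each other and above all other mice. The other groups lay in the order mutant controls, heterozygous controls and heterozygous mice with SE, and neighbours in that order overlapped. In group means Klf10 was 1.94-fold higher in mutants given pilocarpine than in mutant controls (log2 0.96, standard error 0.10) and differed by -0.26 between heterozygous mice with SE and their controls, or by -0.13 without heterozygous mouse with SE 2, the lowest of them. Of 19938 genes it had the 23rd largest change in the mutants and the 2nd largest excess of the mutant over the heterozygous change, 1.22.

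The genes whose levels followed Klf10 most closely over the 12 arrays, among the other 19937, were Sostdc1, an antagonist of BMP and WNT signals (Pearson r = 0.938), Trib2, a pseudokinase (0.937), Sec24d, a subunit of the COPII vesicle coat (0.930), Myh7, a myosin heavy chain (0.919), and Eml4, a microtubule-binding protein (0.914). Since Klf10 stands apart in 1 group, these correlations describe chiefly which genes were high in the same 3 mice, and all 5 rest on the same 12 arrays. Trib2 stood at 10.24, 10.22 and 10.18 in mutants given pilocarpine, against 9.32, 9.48 and 9.67 in mutant controls. It stood at 9.64, 9.35 and 9.34 in heterozygous mice with SE, against 9.46, 9.57 and 9.52 in heterozygous controls. As for Klf10, the mutants given pilocarpine lay above all other mice and the heterozygous groups overlapped. Sostdc1, Sec24d, Myh7 and Eml4 were likewise highest in the 3 mutants given pilocarpine, with smaller differences, of 0.22 to 0.40 between the means of mutants given pilocarpine and mutant controls.

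**Figure D4:**
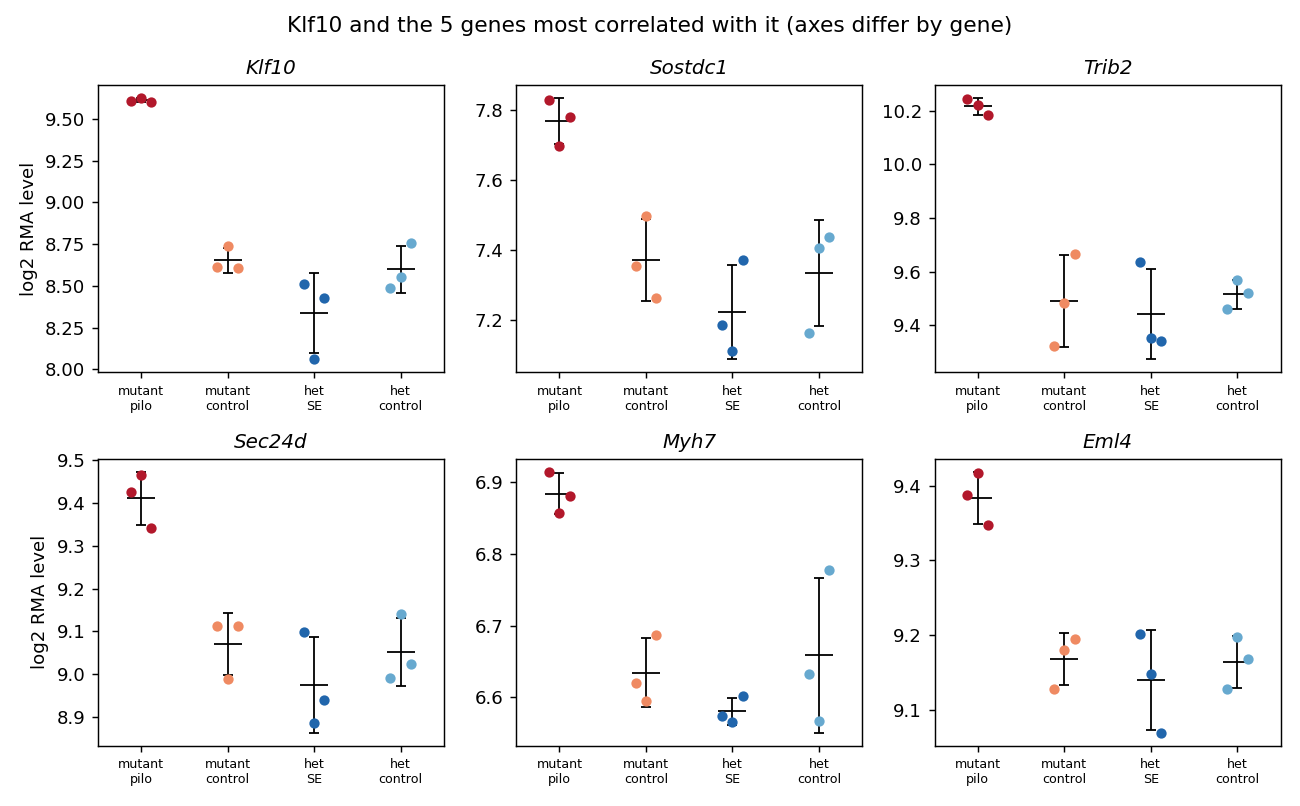
Levels (log2, y axis, scale differing by gene) of Klf10 and of the 5 genes most correlated with it, in the 4 groups of 3 mice; points are mice and bars are the mean and SD. In each panel the 3 mutants given pilocarpine lie above the 3 mutant controls.

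Without pilocarpine, 0 of the 9 tested Klf genes passed the test between mutant and heterozygous controls, where 0.0384% of all probe sets were higher in the mutants and 0.0812% lower, 0.12% in all; Klf9 and Klf16 had an unadjusted p under 0.05, as did 8.73% of all probe sets. Changes ranged over the 9 genes between -0.16 for Klf6 and 0.19 for Klf9, with a median of -0.05, beside -0.01 over all probe sets. All 3 mutant controls lay above the 3 heterozygous controls for Klf9 (difference 0.19, 95% interval 0.09 to 0.29, adjusted p = 0.303), and 6.1% of all probe sets were likewise higher without overlap. For Klf16 all 3 lay below (difference -0.13, 95% interval -0.25 to -0.01, adjusted p = 0.534), as for 7.46% of all probe sets. For Klf10 the mutant controls and heterozygous controls overlapped, with a difference of 0.05.

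In the test of the difference between the responses, the difference was below 0 for 4 of the 9 genes and above 0 for 0 of them, where the difference was below 0 for 2.12% of all probe sets and above 0 for 1.47%, 3.59% in all. The median difference over the 9 genes was -0.35, beside 0.02 over all probe sets. Besides Klf2, Klf4, Klf6 and Klf7, the genes Klf9 and Klf16 had an unadjusted p under 0.05, which makes 6 of the 9, against 15.8% of all probe sets. The remaining 7 Klf genes measured (Klf1, Klf3, Klf8, Klf11, Klf12, Klf14 and Klf17) passed the test in 0 comparisons, with 1 unadjusted p under 0.05 in mutants given pilocarpine, 0 in heterozygous mice with SE, 1 between controls and 1 for the difference. Their changes lay between -0.11 and 0.24 in mutants given pilocarpine and between -0.11 and 0.12 in heterozygous mice with SE.

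SP factors share GC box binding with the Klf family. Of 8 measured, 0 changed in mutants given pilocarpine and Sp3 alone fell in heterozygous mice with SE (log2 change -0.30, adjusted p = 0.00313, or -0.14 and 0.0351 over the mean of its probe sets). Of 12 cofactors and ubiquitin ligases of Klf proteins, 0 changed in the mutants and Fbxw7, the substrate receptor of a ligase that degrades Klf2 and Klf5, rose in heterozygous mice with SE (0.31, adjusted p = 0.00251).

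TGF-β induces Klf10, and the genes of this pathway were measured beside it. Of 10 ligands, receptors and SMADs, Tgfb1 alone rose in mutants given pilocarpine (0.23, adjusted p = 0.0464, a call lost in 14 of 22 alternative settings), and with SE Tgfb1 rose by 0.26 (adjusted p = 0.00498) while the receptor Tgfbr2 fell by 0.26 (adjusted p = 0.00686). Of 8 TGF-β responsive genes, 2 rose in mutants given pilocarpine, the inhibitor Smad7 by 0.35 (adjusted p = 0.0259, lost in 8 alternative settings) and the corepressor Skil by 0.47 (adjusted p = 0.00192). Skil stood at 10.39, 10.35 and 10.35 in mutants given pilocarpine and 9.86, 9.97 and 9.85 in mutant controls, against 10.05, 9.96 and 10.06 in heterozygous mice with SE and 9.79, 10.03 and 9.89 in heterozygous controls. Like Klf10, Skil was highest in the mutants given pilocarpine, and its response was larger there than in heterozygous mice (difference 0.36, adjusted p = 0.0396, a call lost in 14 alternative settings). With SE, 4 of the 8 rose, Bambi by 0.70, Smad7 by 0.66, Id1 by 0.65 and Tgif1 by 0.42. Bambi and Tgif1 had a smaller response in the mutants (differences -0.78 and -0.36, adjusted p = 0.00459 and 0.0130). Over the 8 genes the median change was 0.06 in mutants given pilocarpine and 0.27 with SE, beside -0.00 and -0.03 over all probe sets. Of all probe sets 0.871% rose in mutants given pilocarpine and 5.08% with SE.

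Glucocorticoids induce Klf9 and Klf15. Of 11 glucocorticoid responsive genes, the clock gene Per1 and the kinase inhibitor Errfi1 rose in mutants given pilocarpine (0.67 and 0.69, adjusted p = 0.000106 and 0.000697). Of all probe sets 0.871% rose in this comparison and 5.08% with SE. The median change of the 11 genes was 0.04 in mutants given pilocarpine and 0.11 with SE, beside -0.00 and -0.03 over all probe sets. Their lowest change with SE was -0.24. With SE, 4 rose, Errfi1 by 1.93, Per1 by 1.78, the kinase Sgk1 by 1.06 and the kinase Pdk4 by 0.85, the call of Pdk4 being lost without heterozygous control 2 or 3 or heterozygous mouse with SE 3 (change 0.75 to 1.04 and adjusted p 0.00325 to 0.0629 over all alternatives). The responses of Errfi1, Sgk1 and Per1 were smaller in the mutants (differences -1.24, -1.13 and -1.11). For Sult1a1, a sulfotransferase, the difference was 0.58 (limma, adjusted p = 0.0401, lost in 12 alternative settings). Its change was 0.34 in mutants given pilocarpine and -0.24 with SE, and neither passed the test (limma, adjusted p = 0.108 and 0.151). Over the 11 genes the median difference between the responses was -0.13, beside 0.02 over all probe sets, of which 3.59% passed this test. All 11 genes had a mutant control mean above the heterozygous control mean, with a median difference of 0.24, beside -0.01 over all probe sets, and Zbtb16, a zinc finger repressor, passed the test (0.33, adjusted p = 0.0387, lost in 16 of 22 alternative settings). The 11 genes were read on the same mice and are not independent of each other. The share of all probe sets with a higher mutant control mean was not counted. For Klf9 and Klf15, which are not counted in this list, the differences were 0.19 and 0.07 and did not pass the test. Of 9 genes of the ERK5 and MEF2 arm that induces Klf2 and Klf4, and of their endothelial targets, 0 passed the test in mutants given pilocarpine. With SE the vasoconstrictor Edn1 and the anticoagulant receptor Thbd rose (0.93 and 0.84, adjusted p = 0.0115 and 0.0306, the call of Thbd lost in 7 alternative settings). Edn1 was dim, at 7.12, 6.34 and 7.49 with SE against 6.13, 5.97 and 6.08 in heterozygous controls, where array medians were 6.78 to 6.86. Its call was kept in all 22 alternative settings, with limma adjusted p values up to 0.0498. Over these 9 listed genes the median change with SE was 0.08, beside -0.03 over all probe sets. In mutants given pilocarpine Edn1 and Thbd changed by 0.27 and 0.56 (adjusted p = 0.605 and 0.269). The differences between their responses, -0.65 and -0.28, did not pass the test (adjusted p = 0.310 and 0.753). Mapk7, the gene of ERK5, fell with SE by 0.47 (adjusted p = 0.000101), with a difference between the responses of 0.37 (adjusted p = 0.0195, lost in 4 alternative settings).

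Since Klf2 and Klf4 are also vascular genes, endothelial markers were read beside them. Of 8 markers, 0 rose in any comparison. With SE their changes reached up to 0.34, with a median of -0.08, and Tek alone fell (-0.45, adjusted p = 0.0227). Its change was -0.29 without heterozygous mouse with SE 2, and the call was lost in 3 of 22 alternative settings, among them leaving out heterozygous control 1 or 2. In mutants given pilocarpine the change of Tek was -0.42 (adjusted p = 0.0886). The mean marker level per mouse ranged 8.26 to 8.50 in mutants given pilocarpine, 8.47 to 8.54 in mutant controls, 8.09 to 8.61 in heterozygous mice with SE and 8.41 to 8.55 in heterozygous controls, so that the ranges with and without SE overlapped. The mean level of oligodendrocyte markers was 10.99 to 11.45 in mutants given pilocarpine, where Klf10 was high, against 11.49 to 11.54 in mutant controls. It was 11.33 to 11.44 in heterozygous mice with SE, where Klf10 averaged 8.33, against 11.36 to 11.62 in heterozygous controls. In mutants given pilocarpine 0 of these 5 markers passed the test and 4 had an unadjusted p under 0.05, against 14.8% of all probe sets. Their median change was -0.28 there and -0.11 with SE. Their part in the level of Klf10 was not tested. Of 6 microglial markers, P2ry12 and Cx3cr1 fell with SE (-0.23 and -0.19). The list had a median change of -0.05 with SE and a highest one of 0.05. These 2 calls were lost in 7 and 6 of 22 alternative settings. That of P2ry12 was lost on leaving out any one of the heterozygous mice. That of Cx3cr1 was lost on leaving out heterozygous control 1 or 3 or heterozygous mouse with SE 1 or 3. In mutants given pilocarpine P2ry12 and Cx3cr1 changed by -0.20 and -0.10 (adjusted p = 0.131 and 0.370). The differences between the responses were 0.03 and 0.09 (adjusted p = 0.912 and 0.626). Of 5 inhibitory neuron markers Sst rose with SE (0.31), in a list with a median change of 0.01 and a lowest one of -0.16. No marker of astrocytes, excitatory neurons, granule cells or choroid plexus passed the test in any of the 4 comparisons.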

How the data were processed

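Total RNA of mouse hippocampus was hybridised to 12 Affymetrix Mouse Gene 1.0 ST arrays, 1 per mouse, with 3 mice per group. The deposited values are log2 levels that the authors obtained by robust multiarray averaging in Affymetrix Expression Console, and were used as they stand; versions are not given in the sources used here. Arrays have no read depth, so that their number limits the precision. Of 35556 probe sets, 23410 have a gene in the platform annotation and were tested; 21789 of them name 1 gene. Genes were represented by the probe set with the highest mean. limma 3.58.1 in R 4.3.3 was used (lmFit and eBayes, 4 group means, no block), with Benjamini-Hochberg adjustment over all 23410 and calls at an adjusted p under 0.05. The fit was tested on simulated data. Promoter motifs were searched in Python 3.11.15. Named were the 10 members, Srf, up to 4 called genes per list and contrast, and the 5 genes most correlated with Klf10. The members and lists were chosen with earlier results of these data known. The 7 gene lists and 8 marker lists were described by counts and medians. Listed genes that are not measured under their own symbol in the tables used here are not counted. Alternatives covered normalization, probe sets, arrays in the fit, weights, Xist as a covariate, a replicate block and leaving out each mouse.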

Additional observations from a re-analysis of the deposited data

Results flagged for a closer look

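The response to pilocarpine differed between the genotypes, by the test of the difference itself (limma), for 4 Klf genes: by -0.62 for Klf2, -2.45 for Klf4, -1.04 for Klf6 and -0.38 for Klf7 (log2, mutant minus heterozygous response). Klf10 had a difference of 1.22, every mutant given pilocarpine lying above every mutant control. The heterozygous groups overlapped, with a change in mean of -0.26 with SE, or of -0.13 without heterozygous mouse with SE 2. The difference of 1.22 was not tested, since Klf10 was chosen for it. In the gene lists the same test gave -0.78 for Bambi, -0.36 for Tgif1, -1.24 for Errfi1, -1.13 for Sgk1 and -1.11 for Per1. The response of Skil was larger in the mutants, by 0.36. For Sult1a1 the difference was 0.58, from changes of 0.34 in the mutants and -0.24 in heterozygous mice, neither of which passed the test. For Mapk7 the difference was 0.37, its level falling with SE in heterozygous mice. The calls of Klf2, Klf7, Skil, Sult1a1 and Mapk7 were lost in 11, 11, 14, 12 and 4 of 21 alternative settings. Genotype and SE cannot be told apart in any of these differences.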

How the results depend on the processing

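The calls of Klf2, Klf4, Klf5, Klf6, Klf7 and Klf9 in heterozygous mice with SE, and of Klf4 and Klf6 in the difference between the responses, held in every alternative run at an adjusted p under 0.05. The 7 calls with SE became 6 to 7 when 1 mouse was left out and 2, Klf4 and Klf6, under the study's limits (p under 0.001 after adjustment, change of at least 2-fold). The 4 differences between the responses became 2 over all probe sets, 2 under the study's limits and 2 to 4 when 1 mouse was left out. It was 2 without mutant control 1 or 3, mutant given pilocarpine 1 or 2, heterozygous control 1 or 3, or heterozygous mouse with SE 3. In mutants given pilocarpine the count of 0 became 1 with Xist as a covariate, where Klf4 rose by 0.46 (adjusted p = 0.0435); Xist was above a log2 level of 9 in 1 of 3 mutants given pilocarpine, 2 of 3 mutant controls, 0 of 3 heterozygous mice with SE and 1 of 3 heterozygous controls. Mice of the same animal number in different groups had correlations of deviations from the group means between -0.31 and 0.32, with a median of 0.02. Those of other numbers had -0.44 to 0.39, with a median of -0.02. No pairing was seen, though 3 mice per group allow only a coarse check. The replicate block gave 0, 6, 0 and 3 calls in mutants given pilocarpine, heterozygous mice with SE, the comparison of controls and the difference between the responses. Some changes that passed no test crossed 0 when 1 mouse was left out, ranging between -0.0935 and 0.107 for Klf6, -0.0863 and 0.0116 for Klf7, -0.00892 and 0.0313 for Klf13, -0.0327 and 0.0773 for Klf15 and -0.0771 and 0.0044 for Srf in mutants given pilocarpine, and between -0.0817 and 0.0438 for Klf2 between controls. With array weights the change was -0.00302 for Klf13 and -0.00139 for Klf15 in mutants given pilocarpine. The cause was not tested. With 3 mice per group the size at which a change was called depended on the spread of the gene and on the comparison, within which p was adjusted. A change of 0.18 was called for Klf16 with SE (limma, unadjusted p = 0.00571). One of 0.38 was not called for Klf4 in mutants given pilocarpine, although its unadjusted p was smaller (limma, 0.00454). With SE 12% of all probe sets were called, against 1.84% in mutants given pilocarpine.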
